A study of Mus musculus with 4 samples.

Results

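The genes of this report make up the working machinery of the osteoclast, the cell that dissolves bone. Its 10 members were chosen by name, with earlier results of these data known: Acp5, Ctsk, Mmp9, Calcr, Oscar, Dcstamp, Atp6v0d2, Nfatc1, Tcirg1 and Clcn7. All 10 had a value, of 27594 genes with one, and all 10 were among the 20617 genes tested. The study set jaw bones beside bones of the trunk and limbs as graft material. RNA of 2 trunk and limb bones, the ilium of the pelvis and the femur, and of 2 jaw bones, the maxilla above and the mandible below, came from male C57BL/6 mice aged 35 days and was hybridised to 4 Agilent arrays, 1 per bone. The labels name no allele and no agent for these mice. How many animals gave the RNA of each bone was not given in the labels. A bone has no replicates here, as each was measured on 1 array.

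Osteoclasts form by fusion of precursors of the monocyte lineage under the cytokines M-CSF and RANKL. The transcription factor Nfatc1 then switches on the late genes. The mature cell seals off a patch of bone, pumps protons and chloride across its ruffled border to dissolve the mineral, and releases proteases that digest the collagen. In growing bone, osteoclasts also remove calcified cartilage below the growth plate, and in the jaw they clear the path of erupting teeth.

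Each value is the log2 ratio of a processed signal to the 75th percentile of its array, so 0 is the level of that percentile and a difference of 1 is a 2-fold difference. They are compared between bones for 1 probe at a time, and not between genes. Summed levels of a list add probes of unlike brightness, so its brightest genes weigh most. The arrays had 72.8% to 75.5% of spots well above background and 0 saturated spots, and the spread between spots of 1 probe on an array was 0.0611 to 0.0832 (SD, log2). All 13 probes of the members were well above background on all 4 arrays. The jaw bones (n = 2) were compared with the ilium and femur (n = 2) by limma with Benjamini-Hochberg adjustment over all tested genes, so the standard errors and p-values measure how much bones of 1 class differed, not how much animals did. Between single bones there is 1 array on each side and no test. In whole bone, fewer cells of a type and less RNA per cell cannot be told apart, nor can the bone and its position on the slide.

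The members fell into a set of 6 and a set of 4, a grouping made after their values were seen. Acp5, Ctsk, Calcr, Oscar, Dcstamp and Atp6v0d2 were highest in the ilium and lowest in the femur, with both jaw bones between. Mmp9, Tcirg1, Nfatc1 and Clcn7 were higher in both the ilium and the femur than in either jaw bone. The first set separated the ilium from the femur. The order of the second set, with both jaw bones below the ilium and the femur, was held by 36.3% of all tested genes, so it does not mark these members out. For Clcn7 the classes were only 0.04 apart on the log2 scale, and of this set limma called only Mmp9 and Tcirg1.

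**Figure D1:**
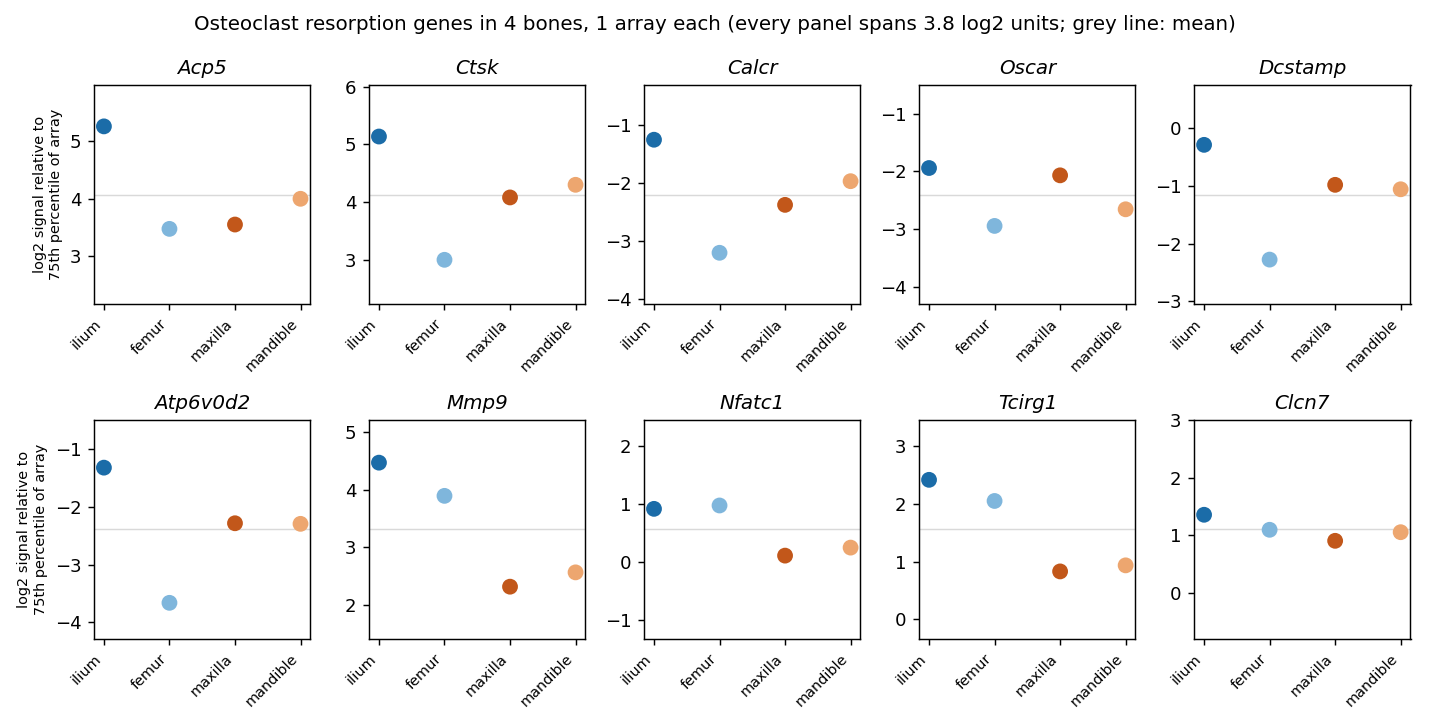
Level of each osteoclast resorption gene (log2 ratio to the array's 75th percentile, y axis) in each of the 4 bones (x axis), 1 point per array, with the mean over the 4 bones as a grey line. In the first 6 panels the ilium is the highest point and the femur the lowest; in the last 4 both jaw bones lie below the ilium and the femur.

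Among the secreted and lysosomal enzymes, Ctsk encodes cathepsin K, the protease that digests type I collagen in the resorption pit. Its level was 5.13 in the ilium and 3.00 in the femur, against 4.08 in the maxilla and 4.30 in the mandible (probe at chromosome 3, 95592129 to 95592373, build mm8). The ilium was 4.39-fold above the femur, and the jaw mean lay 2.28-fold above the femur and 1.93-fold below the ilium. Because the ilium and femur stood on opposite sides of the jaw, the jaw differed from their mean by only 0.12 ± 0.81 (SE), with an adjusted p of 0.928 by limma.

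Acp5 encodes tartrate-resistant acid phosphatase, the enzyme stained to count osteoclasts. It read 5.25 in the ilium and 3.48 in the femur, against 3.55 in the maxilla and 4.00 in the mandible (chromosome 9, 21879939 to 21879998, mm8). The ilium stood alone, 3.42-fold above the femur and 2.78-fold above the jaw mean. The femur and the maxilla were nearly level, so which of them was lowest depended on how the arrays were scaled. The jaw difference was -0.59 ± 0.69 (limma adjusted p = 0.586).

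Mmp9, gelatinase B, degrades denatured collagen and is made by osteoclasts and also by neutrophils. Its level was 4.47 in the ilium and 3.89 in the femur, against 2.32 in the maxilla and 2.57 in the mandible (chromosome 2, 164646008 to 164646067, mm8). The classes did not overlap. The jaw was 3.33-fold lower, a difference of -1.74 ± 0.30 with a limma adjusted p of 0.0475, while the ilium was 1.49-fold above the femur. A second Mmp9 probe, printed in 10 spots, gave -1.75 ± 0.33 and a limma adjusted p of 0.0514 in a fit over all probes.

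Among the receptors, Calcr encodes the calcitonin receptor, through which calcitonin halts resorption. It read -1.25 in the ilium and -3.21 in the femur, against -2.38 in the maxilla and -1.97 in the mandible (chromosome 6, 3635940 to 3635999, mm8). The ilium was 3.89-fold above the femur, and the jaw bones were between them, with a jaw difference of 0.06 ± 0.75 (limma adjusted p = 0.964). A second, dimmer Calcr probe kept the order of all 4 bones, with the ilium 2.66-fold above the femur.

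Oscar, an immunoglobulin-like receptor that binds collagen and costimulates osteoclast precursors, read -1.94 in the ilium and -2.95 in the femur, against -2.07 in the maxilla and -2.66 in the mandible (chromosome 7, 3213620 to 3213679, mm8). Its ilium-to-femur ratio of 2.00 was the smallest of the set of 6. The maxilla nearly reached the ilium and was 1.50-fold above the mandible. The jaw difference was 0.08 ± 0.46 (limma adjusted p = 0.916).

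The fusion gene Dcstamp encodes a membrane protein without which precursors stay mononuclear. Its level was -0.29 in the ilium and -2.28 in the femur, against -0.98 in the maxilla and -1.06 in the mandible (chromosome 15, 39590574 to 39590633, mm8). The ilium was 3.97-fold above the femur, while the maxilla and mandible differed by 0.08 on the log2 scale, about the spread between spots. That difference ran from -0.20 with the deposited series table to 0.12 with normexp background. The jaw mean was 2.39-fold above the femur, and the jaw difference from the mean of ilium and femur was 0.26 ± 0.75 (limma adjusted p = 0.828).

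The acid-secreting members divided between the sets. Atp6v0d2 encodes the d2 subunit of the proton pump, which osteoclasts use beside the widespread d1 form and which also takes part in fusion. It read -1.32 in the ilium and -3.66 in the femur, against -2.28 in the maxilla and -2.29 in the mandible (chromosome 4, 19804304 to 19804363, mm8). The ilium was 5.07-fold above the femur (a log2 difference of 2.34, and 1.75 with normexp background correction). The maxilla-minus-mandible difference of 0.01 depended on the scaling. It ran from -0.27 with the deposited series table to 0.17 with normexp background. The jaw difference was 0.20 ± 0.87 (limma adjusted p = 0.886).

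Tcirg1 encodes the a3 subunit that carries the pump to the ruffled border. Its loss causes osteopetrosis, in which bone is not resorbed. Its level was 2.42 in the ilium and 2.05 in the femur, against 0.83 in the maxilla and 0.93 in the mandible (chromosome 19, 3896678 to 3896810, mm8). The classes did not overlap, and the jaw was 2.55-fold lower, a difference of -1.35 ± 0.23 (limma adjusted p = 0.0482). The ilium was 1.29-fold above the femur.

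Clcn7 encodes the chloride-proton exchanger that balances the pumped charge, and its loss also causes osteopetrosis. It was the most even member, at 1.36 in the ilium and 1.10 in the femur, against 0.90 in the maxilla and 1.05 in the mandible (chromosome 17, 24889003 to 24889062, mm8). The classes were separated by 0.04 on the log2 scale, less than the spread between spots. The jaw difference of -0.25 ± 0.22 did not pass limma's threshold (adjusted p = 0.476).

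Nfatc1, the master transcription factor of the set, read 0.92 in the ilium and 0.97 in the femur, against 0.11 in the maxilla and 0.25 in the mandible. The ilium was 0.96-fold of the femur on this probe but 1.33-fold above it on a second, so the direction between these bones depended on the probe. Both jaw bones lay below. The difference of -0.77 ± 0.20 did not pass the threshold (limma adjusted p = 0.0859). The second probe, designed to another transcript accession, gave a jaw difference of -1.04 ± 0.24 (limma adjusted p = 0.0691 in the fit over all probes).

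Promoter sequences were available for 6 of the 10 members, at 12 annotated start sites. They are shown because members of both sets had matches to motifs of osteoclast transcription factors, so that the matches can be set against the levels. The printed sites were picked from the 7 of 12 with a match. Each line gives the 250 bases before a start site, 5′ to 3′ on the gene's strand, from RefSeq on GRCm38.p6, in lower case with motif matches in capitals. The Ctsk promoter is chr3:95498960-95499209 (plus strand), the Oscar promoter chr7:3616158-3616407 (minus strand), 1 of the 3 Acp5 start sites chr9:22130599-22130848 (minus strand) and 1 of the 2 Clcn7 start sites chr17:25133141-25133390 (plus strand).
Ctsk: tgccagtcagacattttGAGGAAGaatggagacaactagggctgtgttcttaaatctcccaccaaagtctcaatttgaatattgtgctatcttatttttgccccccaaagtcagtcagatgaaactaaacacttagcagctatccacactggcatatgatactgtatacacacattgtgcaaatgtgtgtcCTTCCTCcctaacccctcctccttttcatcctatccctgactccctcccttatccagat
Oscar: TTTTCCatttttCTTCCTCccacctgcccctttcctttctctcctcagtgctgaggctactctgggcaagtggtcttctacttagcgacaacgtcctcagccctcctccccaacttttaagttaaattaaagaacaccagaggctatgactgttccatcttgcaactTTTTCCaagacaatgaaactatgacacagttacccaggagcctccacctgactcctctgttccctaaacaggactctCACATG
Acp5: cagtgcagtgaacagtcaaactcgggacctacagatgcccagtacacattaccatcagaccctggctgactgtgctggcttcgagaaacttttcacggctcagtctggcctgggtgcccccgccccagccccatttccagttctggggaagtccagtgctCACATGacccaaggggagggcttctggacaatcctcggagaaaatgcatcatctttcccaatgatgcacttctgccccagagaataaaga
Clcn7: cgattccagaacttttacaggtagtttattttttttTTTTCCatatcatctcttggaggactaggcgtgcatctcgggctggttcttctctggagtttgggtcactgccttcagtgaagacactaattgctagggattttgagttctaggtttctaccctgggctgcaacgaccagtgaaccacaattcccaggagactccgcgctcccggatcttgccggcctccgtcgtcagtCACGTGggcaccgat
The motifs were searched on both strands and no matches overlapped. They were the PU.1-type box GAGGAAG and the core GGAAAA that NFAT binds. The others were the E-boxes CACGTG (palindromic) and the form CATGTG, bound by factors such as Mitf, the AP-1 site TGANTCA and the box TATAAA of TATA promoters.

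In the set of 6, Ctsk had 2 GAGGAAG matches, and Oscar had 1 GAGGAAG match, 2 of the motif GGAAAA and 1 of the motif CATGTG, the last ending at the base before the start. Acp5 had CATGTG at the printed start site and GGAAAA at another, and Calcr had no match at either of its 2 sites. In the set of 4, Clcn7 had CACGTG and GGAAAA at the printed site and CATGTG at the other, and Tcirg1 had GGAAAA at 1 of its 3. Of the 12 sites, 2 held GAGGAAG, 4 held GGAAAA, 1 held CACGTG and 3 held CATGTG. Of 32851 mouse promoters of the same length, 10.6% held GAGGAAG and 20.4% held GGAAAA, while 6.02% held CACGTG and 12.3% held the form CATGTG. The AP-1 motif and the TATA box, held by 6.75% and 12.4%, were at 0 of the 12 sites. A match is a description of the letters, and matches occurred in both sets.

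The set of 6 was drawn from these values, so its large ilium-femur difference follows from the grouping. The shares below therefore count all 10 members. Of the 10 members, 6 were at least 2-fold higher in the ilium than in the femur, beside 2.27% of all tested genes (467 genes). No member was 2-fold higher in the femur, beside 1.57%. The same 6 were highest in the ilium and lowest in the femur, an order held by 0.859% of tested genes, and by 0.325% with the 2-fold difference added; this order was noticed after the values were seen. With normexp background correction 0.985% of genes were 2-fold higher in the ilium, and 5 of 10 members. Only 76 genes had a larger ilium-minus-femur difference than Atp6v0d2, 94 than Ctsk, 112 than Dcstamp, 121 than Calcr and 148 than Acp5, but 506 than Oscar.

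Cartilage genes moved with this difference and more strongly. A list of 14 cartilage genes was chosen after Acan was seen beside Ctsk and used without a test. Of these, 12 could be tested. At least 2-fold higher in the ilium than in the femur were 11 of the 12, beside 2.27% of all tested genes. The median difference of the 12 was 3.18, with a range of 0.67 to 6.84, whose top, Cnmd, lacked a signal well above background in the femur. Col2a1, the main cartilage collagen, was at 4.45 in the ilium and 1.24 in the femur, against 2.26 in the maxilla and 2.58 in the mandible. Col10a1, the collagen of hypertrophic cartilage, was well above background on 2 arrays only.

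The summed cartilage level was 5.86 in the ilium and 3.91 in the femur, against 4.19 in the maxilla and 5.58 in the mandible. It had the same highest and lowest bone as the set of 6, and 5 of the 12 genes, Acan, Cnmd, Col2a1, Col9a1 and Hapln1, held that order singly. Between the jaw classes limma called 1 of the 12, Sox9, higher in the jaw, beside 4.51% of all tested genes. The part of cartilage in the members' ilium-femur difference was not tested.

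The other 4 members were closer to the mass of genes on this axis, from 1419 genes above Mmp9 to 10512 above Nfatc1. The median ilium-minus-femur difference was 1.39 over the 10 members and -0.05 over all tested genes, whose median absolute difference was 0.19. The maxilla and mandible differed more over all genes, with a median absolute difference of 0.45. No member was 2-fold apart between the jaw bones in either direction, beside 13.5% of genes higher in the maxilla and 8.33% higher in the mandible.

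On the jaw axis the members were near the background. Limma called 2 of 10 (Mmp9 and Tcirg1), both lower in the jaw, and none higher; 3 of 10 had an unadjusted p under 0.05. Over all tested genes 11.8% were called, 7.25% lower in the jaw and 4.51% higher. In 4 of 10 members both jaw bones lay below both other bones, beside 36.3% of all genes, and in 0 of 10 both lay above, beside 31.9%. The median jaw difference was -0.09 over the members and -0.03 over all genes. The members' median rested on which bones were included: it was 0.44 without the ilium, -0.93 without the femur and -0.35 with median centring or the series table. Leaving out the ilium or the femur ended both calls (2628 to 3550 genes then had an unadjusted p under 0.05, and 0 were called), and leaving out the mandible brought the calls to 3. Quantile scaling between arrays left neither call, and median centring left 1, with both differences negative in each case.

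**Figure D2:**
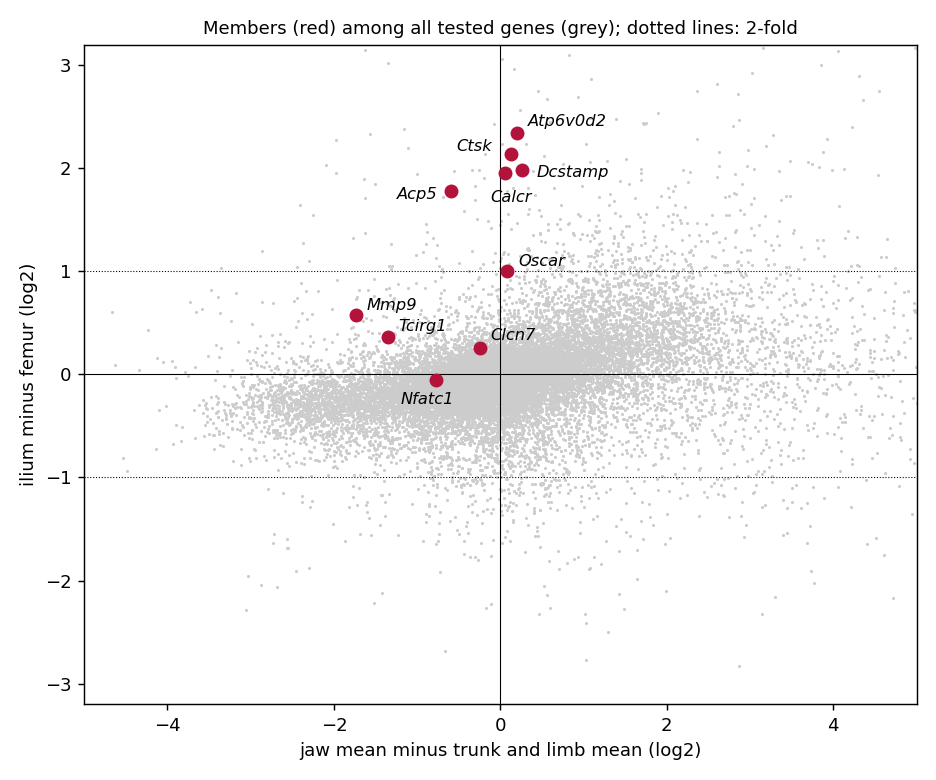
Difference between the ilium and the femur (log2, y axis) against the difference between the jaw mean and the mean of ilium and femur (log2, x axis) for the 10 members (red) and all tested genes within the axis limits (grey), with 2-fold marked by dotted lines. Atp6v0d2, Ctsk, Dcstamp, Calcr and Acp5 lie high on the y axis, Oscar lies on the 2-fold line, and Mmp9 and Tcirg1 lie to the left.

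The genes with profiles most like each member were found by the Euclidean distance between profiles over the 4 bones, each centred on its own mean (log2 units). Of all tested genes, the nearest to Ctsk were Ocstamp (0.15), Calcr (0.20) and Atp6v0d2 (0.23), with 12 genes within 0.5. Of these 12, 3 were members, Dcstamp (0.27) being the other. The 12 also held Acan (0.39), the cartilage proteoglycan aggrecan, at 0.93 in the ilium and -1.21 in the femur, against -0.27 in the maxilla and -0.39 in the mandible. Ocstamp encodes a fusion protein related to Dcstamp, and was also among the 3 nearest genes of Calcr (0.21) and Atp6v0d2 (0.32). The limit of 0.5 was set after the values were seen, the points are 4 arrays on 1 slide, and the distances carry no test.

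Dcstamp was nearest to Serpind1 (0.13), Prss46 (0.20) and Atp6v0d2 (0.26). Acp5 had the sparsest neighbourhood of the set, with Rarres1 (0.20), Mst1r (0.32) and Lctl (0.34) nearest and 5 genes within 0.5. Oscar was nearest to Serpine2 (0.14), with 62 genes within 0.5. Tcirg1 was nearest to Cd84 (0.12) and to Cd68 (0.16), the lysosomal glycoprotein of macrophages and osteoclasts, among 496 genes within 0.5. Mmp9 had 84 genes within 0.5, Tcirg1 among them (0.43). The flatter profiles of Nfatc1 and Clcn7 had 3254 and 4596.

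Fixed paralogues of some members were read beside them, and how alike their sequences are was not measured. Of these, Ocstamp is itself an osteoclast fusion gene, so it does not bear on forms outside the osteoclast. Ocstamp read 1.17 in the ilium and -1.07 in the femur, against -0.10 in the maxilla and 0.24 in the mandible, a difference of 2.24 between ilium and femur. Atp6v0d1, the widespread paralogue of Atp6v0d2, read 2.43, 2.40, 1.89 and 1.74 in the same order, with the ilium and femur nearly level. Its jaw difference was -0.60 (limma adjusted p = 0.129).

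Other forms of the Tcirg1 subunit also had both jaw bones below the ilium and the femur, an order held by 36.3% of all tested genes. Their jaw differences were smaller than that of Tcirg1. Unlike Tcirg1, both were slightly higher in the femur than in the ilium. Atp6v0a1 read 0.24 in the ilium and 0.55 in the femur, against -0.22 in the maxilla and 0.02 in the mandible. Atp6v0a2 read 0.77, 0.88, 0.61 and 0.70 in the same order. Their jaw differences, -0.49 and -0.17, did not pass limma's test (adjusted p = 0.235 and 0.569). Over the 14 other pump subunits tested, the ilium-femur difference ranged from -0.32 to 0.47 with a median of 0.25. None was 2-fold apart, beside 2.27% of all tested genes higher in the ilium and 1.57% higher in the femur. None was called in the jaw, beside 11.8% of all tested genes (limma, 2 had an unadjusted p under 0.05). For 14 genes, counts of 0 are near these shares and do not mark the other subunits out.

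Among the relatives of Ctsk, Ctsb, a lysosomal cathepsin of most cells, read 4.94 in the ilium and in the femur, against 4.57 in the maxilla and 4.79 in the mandible. Ctsl read 4.41 in the ilium and 4.27 in the femur, against 5.35 in the maxilla and 5.11 in the mandible, with a jaw difference of 0.89 ± 0.21 (limma adjusted p = 0.0781). Ctss, a cathepsin of antigen-presenting cells, read 4.37, 4.71, 3.86 and 3.29, with a jaw difference of -0.96 ± 0.31 (limma adjusted p = 0.124). None of these relatives was 2-fold apart between the ilium and the femur, beside 2.27% of all tested genes higher in the ilium and 1.57% in the femur.

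The cytokine axis upstream of the members was read from 4 genes. Tnfsf11, which encodes RANKL, read -3.76 in the ilium and -4.52 in the femur, against -2.76 in the maxilla and -3.60 in the mandible. Tnfrsf11b, its decoy receptor osteoprotegerin, read -0.99, -1.71, -0.05 and 0.07, with both jaw bones above the others and a jaw difference of 1.36 ± 0.33. Neither difference passed limma's threshold (adjusted p = 0.227 and 0.0787). Both ligand and decoy were lowest in the femur and, unlike the set of 6, higher in both jaw bones than in the ilium.

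Of the receptors on the precursor, Tnfrsf11a, which encodes RANK, followed the order of the set of 6, at -1.37 in the ilium and -2.93 in the femur, against -1.46 in the maxilla and -2.18 in the mandible. The ilium exceeded the femur by 1.56 on the log2 scale. Csf1r, the M-CSF receptor of the whole macrophage lineage, read 2.76 in the ilium and 2.29 in the femur, against 1.71 in the maxilla and 2.09 in the mandible. Its ilium-femur difference was 0.48, and its jaw difference -0.62 ± 0.29 (limma adjusted p = 0.226).

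Across a wider list of 75 other osteoclast genes, 73 were tested. Beside 2.27% of all tested genes, 4 of the 73 (5.48%) were at least 2-fold higher in the ilium than in the femur. These were Tnfrsf11a, Ocstamp, Prdm1, a repressor that permits osteoclast differentiation (a log2 difference of 1.14), and Mmp13, a collagenase (1.53), named after their values were seen. The median ilium-femur difference of the 73 was 0.04. The order with the ilium highest and the femur lowest was held by 5 of the 73, beside 0.859% of all tested genes. These were Tnfrsf11a, Ocstamp, Trem2, Mitf and Atp6v1c1. In Trem2, Mitf and Atp6v1c1 the ilium-femur difference was small (0.42, 0.28 and 0.47).

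In the jaw comparison limma called 14 of the 73 lower (19.2%, beside 7.25% of all tested genes) and 0 higher, with 26 at an unadjusted p under 0.05 and a median difference of -0.36. Differentiation signals gave 6 of 14, among them the kinases Btk (-2.62 ± 0.23, adjusted p = 0.0325) and Syk (-2.27 ± 0.31, 0.0366) and the adaptors Fcer1g (-1.99 ± 0.21, 0.0325) and Tyrobp (-1.81 ± 0.23, 0.0343); Plcg2 and Tec were the others. Transcription factors gave 3 of 15, Spi1 (-2.50 ± 0.21), Irf8 (-2.30 ± 0.26) and Tfec (-1.99 ± 0.23), each at a limma adjusted p of 0.0325. Spi1 encodes PU.1, needed by macrophages, B cells and osteoclasts, and Irf8 restrains osteoclast formation.

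Fusion and attachment genes gave 3 of 12, Itgb3, the vitronectin receptor chain (-2.16 ± 0.24), Ptk2b (-1.82 ± 0.22) and Cbl (-1.55 ± 0.26). Acid secretion gave 1 of 21, Car2, carbonic anhydrase II, also abundant in red cells (-2.70 ± 0.30). Other proteases gave 1 of 11, Mmp8, the neutrophil collagenase (-2.57 ± 0.43, limma adjusted p = 0.0471). Several of these called genes are also known from other marrow cells, but which cells gave their signal here was not tested.

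**Figure D3:**
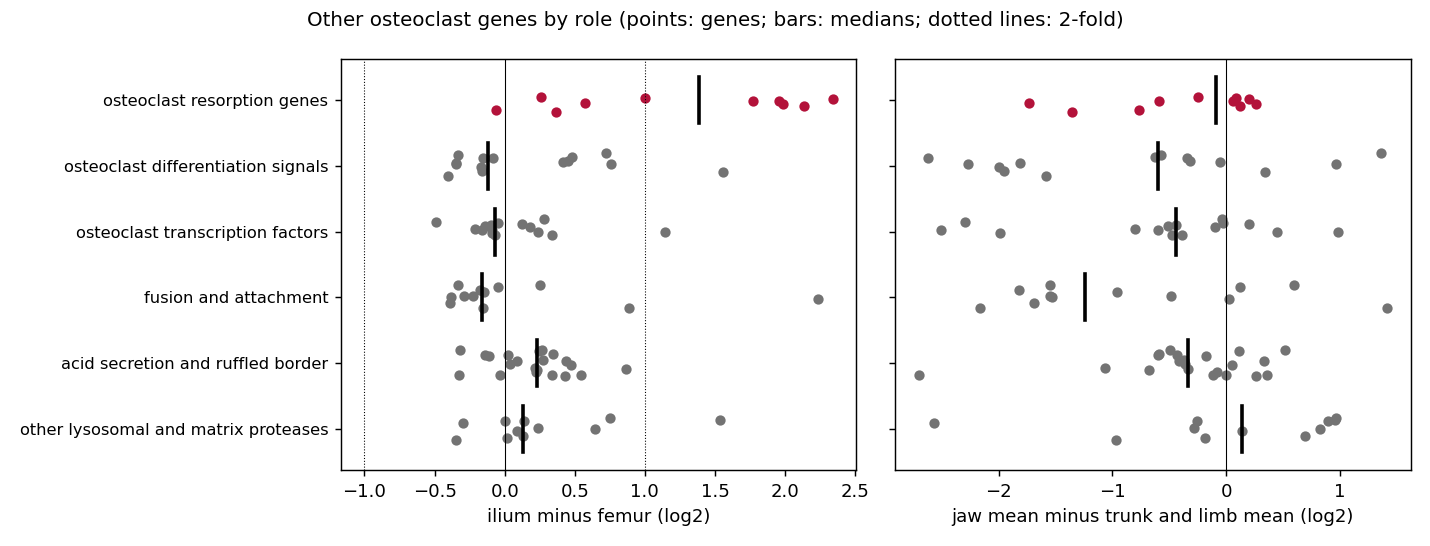
Difference between ilium and femur (left, log2) and between the jaw mean and the mean of ilium and femur (right, log2) for the members (red) and for other osteoclast genes by role (grey), 1 point per tested gene, with medians as bars and 2-fold as dotted lines on the left. On the left the median of the members lies at 1.39, while the medians of the other lists lie between -0.16 and 0.23.

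Markers of marrow cells moved with the jaw difference of Mmp9 and Tcirg1. Limma called lower in the jaw 7 of 11 neutrophil granule genes (median -2.37), 8 of 9 erythroid (-3.28), 7 of 8 megakaryocyte (-3.15), 6 of 9 B lymphocyte (-2.23), 2 of 11 macrophage (Marco and Mpeg1, -0.82) and 1 of 8 T lymphocyte genes (-1.25), and none higher. Over all tested genes 7.25% were called lower. The neutrophil list holds Mmp8, and the macrophage list Csf1r, of the osteoclast lists. The summed neutrophil level was 9.82 in the ilium and in the femur, against 9.16 in the maxilla and 8.73 in the mandible. The summed macrophage level was 5.68, 5.88, 4.65 and 4.70 in the same order.

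The other summed marrow levels ran the same way. The erythroid sum was 9.30 in the ilium and 9.38 in the femur against 8.44 and 8.48 in the jaw bones. The B lymphocyte sum was 5.73 and 6.01 against 4.10 and 3.99, the T lymphocyte sum 1.60 and 2.01 against 0.72 and -0.38, and the megakaryocyte sum 7.19 and 7.52 against 4.75 and 5.26. All tested markers of these 6 lists were well above background on all 4 arrays. Their part in the difference of Mmp9 and Tcirg1 was not tested.

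None of the 6 marrow lists followed the ilium-femur difference of the set of 6. No gene in them was 2-fold higher in the ilium, and their median differences ran from -0.55 (megakaryocyte) to -0.02 (neutrophil). The summed level of the set of 6 was 6.23 in the ilium and 4.30 in the femur, against 4.90 in the maxilla and 5.20 in the mandible. Acp5 and Ctsk, at 5.25 and 5.13 in the ilium, were the brightest of the 6 and weigh most in this sum.

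Osteoblast and osteocyte markers, which also check that the tissue was bone, were well above background on all 4 arrays for 11 of 11 genes. Sp7, Spp1 and Dmp1 were 2-fold higher in the ilium than in the femur, beside 2.27% of all tested genes. All 11 were higher in the ilium, by 0.14 to 1.06 with a median of 0.46. Their summed level was 8.96 in the ilium and 8.49 in the femur, against 9.30 in the maxilla and 9.22 in the mandible, so unlike the set of 6 it was higher in the jaw bones than in the ilium. Its part in the ilium-femur difference of the members was not tested. None of the 11 was called in the jaw comparison, beside 11.8% of all tested genes (limma, 3 had an unadjusted p under 0.05). In 8 of the 11 both jaw bones lay above the ilium and the femur, beside 31.9% of all tested genes. Their median jaw difference was 0.72.

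The jaw samples also held other tissues. Limma called 4 of 8 tooth matrix genes (median 9.49) and 7 of 7 tested stratified epithelium genes (6.69) higher in the jaw. Enam, Mmp20, Odam, Amtn and Krt15 were well above background in the jaw bones only, and passed the filter through those arrays. Their differences and the tooth matrix median are therefore bounds, and the calls of Enam, Mmp20 and Krt15 add no separate evidence. Over all tested genes 4.51% were called higher. The tooth matrix sum was 6.59 in the maxilla and 8.04 in the mandible against -1.39 in the ilium and -2.39 in the femur, and the epithelial sum 6.45 and 6.89 against -0.55 and -0.64. Skeletal muscle genes were called lower in 2 of 8 (median -1.96), beside 7.25% of all tested genes. Their sums were 9.53, 9.52, 6.90 and 9.18 in the ilium, femur, maxilla and mandible. Endothelial genes were called in 0 of 5 (limma), beside 11.8% of all tested genes, with sums of 2.31, 2.07, 1.42 and 2.43. In the bones without teeth, Amelx was 4.52-fold and the epithelial keratin Krt13 2.63-fold higher in the ilium than in the femur, and Dspp stood well above background in every bone but the femur. These genes were named after their values were seen. At least 2-fold higher in the ilium were 2 of 8 tooth matrix and 1 of 7 epithelial genes, beside 2.27% of all tested genes. The median ilium-femur differences of these lists were 0.14 and 0.26. Krt5 (-0.39), Krt14 (-0.14), Perp (-0.18) and Klk4 (-0.15) were among those running the other way. What these tissues contributed to the members' levels was not tested.

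**Figure D4:**
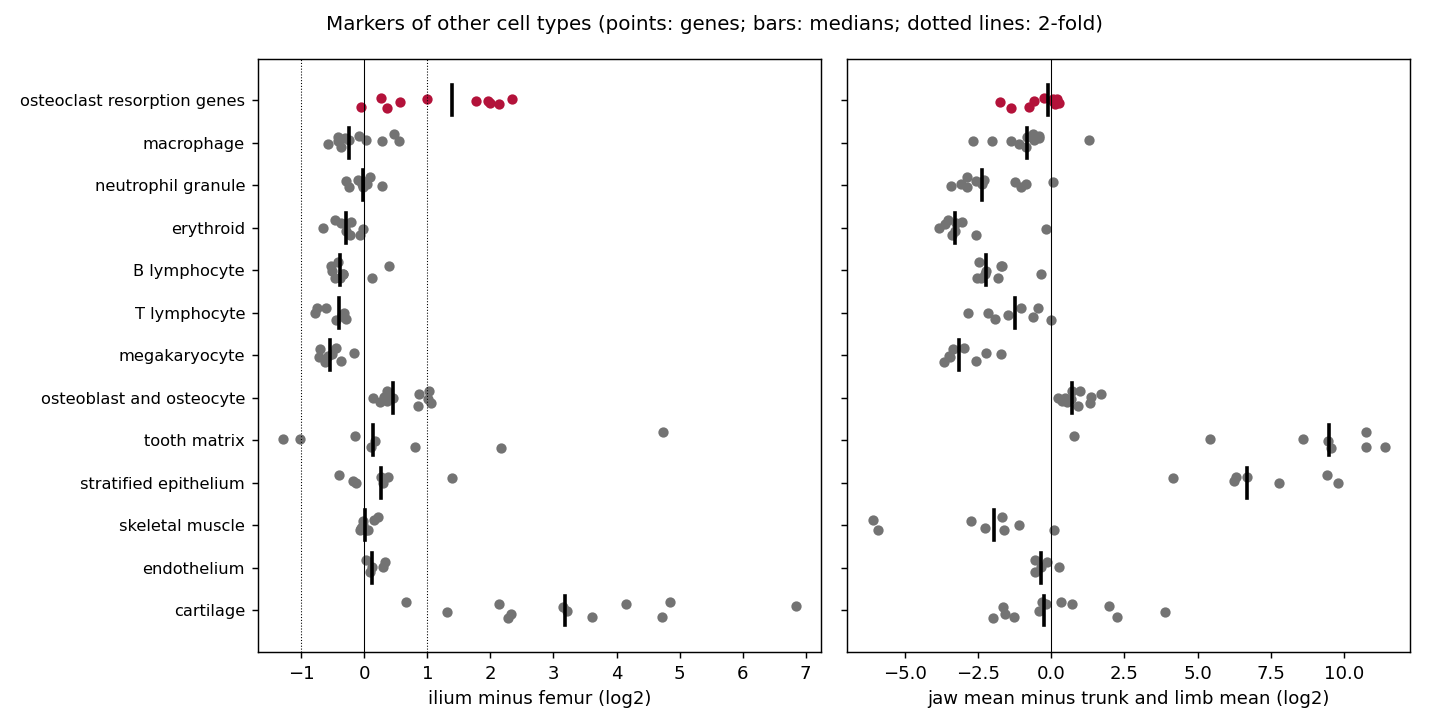
Difference between ilium and femur (left, log2) and between the jaw mean and the mean of ilium and femur (right, log2) for the members (red) and for markers of other cell types (grey), 1 point per tested gene, with medians as bars. The medians of the marrow lists lie at -0.55 to -0.02 on the left and below 0 on the right, that of cartilage lies at 3.18 on the left, and those of tooth matrix and epithelium lie at 9.49 and 6.69 on the right.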

How the data were processed

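RNA of 4 bones was measured on 4 one-colour Agilent mouse arrays, 1 per bone. The deposited spot intensity was background-subtracted and detrended by Agilent Feature Extraction 9.5.3.1, per the file headers and the submitters' processing notes. The deposited series table, an alternative here, gives log2 values from GeneSpring, per the series description. The origin of its scaling constants is not given in the sources used here. A RefSeq table (GRCm38.p6) named 24375 of 41174 probes through their accession and 6301 through a symbol still in use. It named 2426 more through an earlier symbol, and 8072 kept the file's name. Probe positions are on mm8, per the file headers.

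The processed signal was divided by its array's 75th percentile before taking log2. Control spots and single outlier spots were left out and the remaining spots of each probe averaged. A gene with several probes was read from its brightest. Genes well above background on at least 2 arrays were tested with limma 3.58.1 in R 4.3.3 (jaw bones against ilium and femur, adjusted p under 0.05), after a check on simulated data. With 1 array per bone, the number of arrays limits the precision. Summed levels are log2 of the summed relative signals of a list. Named genes were the members, up to 6 called genes per list, fixed paralogues and receptors, and the 3 nearest profiles of a member; those without a gene symbol are not printed. The cartilage list was added after values were seen. The members and lists were chosen with earlier results of these data known. Alternatives were normexp background, quantile scaling, median centring, the series table, no filter, the mean of probes, limma-trend, outlier probes removed whole, and leaving out each bone. A planned comparison of protein sequences was not run.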

Additional observations from a re-analysis of the deposited data

How the results depend on the processing

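The share of all genes 2-fold higher in the ilium, 2.27% at first, was 0.985% with normexp background, and the share with the ilium highest and the femur lowest, 0.859% at first, was 1.31% with no filter. The Nfatc1 ilium-femur difference was 0.18 with the mean of probes. Atp6v0d2 had the largest ilium-femur difference of the members except with normexp (1.75, against 2.04 for Ctsk). The ilium-femur pattern kept 6 members past 2-fold except with normexp background and quantile scaling, where Oscar dropped just below (0.88 and 0.98 on the log2 scale). Acp5 lost the lowest rank in the femur under median centring and the series table, which left 5 of the 6 in that order. The differences of Mmp9 (-2.02 to -1.45) and Tcirg1 (-1.60 to -1.17) stayed negative throughout. Members called, 2 at first, were 0 with quantile scaling and no filter, 1 with median centring, the series table or the mean of probes, and 0 to 3 when a bone was left out. All genes called, 2423 at first, were 1120 with no filter and 0 to 8204 when a bone was left out; other osteoclast genes called, 14 at first, were 9 with no filter and 0 to 21. Of the genes called, 38.3% were higher in the jaw, and this share was 48.1% without the maxilla, 49.3% without the mandible, 31.3% with quantile scaling, 26.8% with median centring and 27.2% with the series table; median centring and the series table moved the median of all genes from -0.03 to -0.28. Jaw differences that limma did not call changed sign with quantile scaling (Atp6v0d2 -0.012, Calcr -0.16, Oscar -0.11), median centring (Atp6v0d2 -0.050, Calcr -0.20, Ctsk -0.13, Oscar -0.17), the series table (Atp6v0d2 -0.051, Calcr -0.20, Ctsk -0.13, Oscar -0.17) and the mean of probes (Calcr -0.051). Leaving out a bone moved them from -1.48 to 0.30 for Acp5, -0.97 to 1.37 for Atp6v0d2, -0.92 to 1.04 for Calcr, -0.95 to 1.19 for Ctsk, -0.73 to 1.26 for Dcstamp and -0.42 to 0.58 for Oscar. The cause of these changes was not tested. No paired analysis was possible because each bone has 1 array and the labels carry no replicate numbers.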
